A study of Mus musculus with 16 samples.

Results

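Haematopoietic stem cells (HSC) recovered from transplanted mice were compared by the age of the marrow they came from. The comparison used 4 of the 16 arrays of the series: 2 labelled as transplanted HSC of aged origin and 2 labelled as transplanted HSC of young origin. They were chosen by these labels alone, and no other array entered the main fit. The cells of all 4 arrays were wild-type C57Bl6 and came from bone marrow, sorted out of mice that had received young or aged marrow. Biotinylated cRNA from 10000 cells was hybridised to Affymetrix arrays, which read each gene by 1 or more probe sets. Both arrays of a group are labelled as biological replicates. For the transplanted cells they give neither the donors' age in months nor the sex or age of the recipients, the time since transplantation, the number of animals behind an array, or how donor cells were told from cells the host kept. Whether separate animals stand behind the arrays is therefore not known, and the p-values only measure the spread from array to array. HSC sorted directly from untransplanted male mice served for reference, with 3 arrays from young animals of 3 to 4 months and 3 from aged animals of 21 to 24 months, here called steady-state HSC.

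HSC sit in the bone marrow, divide rarely and renew every blood lineage. With age they are known to grow in number, to give less lymphoid and more myeloid and platelet output, and to repopulate a host less well per cell. Transplantation puts such cells into a new, usually irradiated host, where they first divide to refill the marrow, so the comparison asks which expression differences by age of origin are seen after that passage. Levels below are log2 of the deposited intensity, and a difference is the mean of the 2 aged-origin arrays minus the mean of the 2 young-origin arrays, so that 1 means a change by a factor of 2. Arrays are called young 1, young 2, aged 1 and aged 2 by the number in their label.

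The median intensity over all probe sets was 50.32 and 50.68 in young 1 and 2, and 51.94 and 51.67 in aged 1 and 2. It was lower in the steady-state arrays, at 43.52 to 45.09, and no scaling between the settings was applied here. After taking the brightest probe set of each gene, 13645 of 18193 genes lay above a dimness filter, the 25th percentile of mean level, which was at 4.50. Across these genes the young pair correlated at 0.920 and the aged pair at 0.953, while the 4 pairs of an aged with a young array lay between 0.931 and 0.952. The young arrays were thus less alike than any aged and young array, and 2625 genes (19.2%) differed between them by more than 1 log2, against 1253 (9.18%) in the aged pair. In steady-state HSC the replicate pairs correlated at 0.985 to 0.993, and genes are not independent replicates. The labelled cell type was checked against its markers. Kit, the stem cell factor receptor, stood at 11.02, 10.87, 11.06 and 11.07 in young 1, young 2, aged 1 and aged 2, and Mecom, a transcription factor of HSC, at 9.57, 9.98, 9.48 and 10.28. Both were brighter in steady-state HSC, Kit at 12.08 to 12.45 and Mecom at 11.68 to 11.93. Not every HSC identity gene went that way. Runx1 stood at 10.88 to 11.24 in the transplanted and 9.49 to 10.21 in the steady-state arrays. Of the marker lists of other lineages, 4 of 19 B lineage genes, 5 of 16 monocyte, 1 of 15 erythroid and 5 of 17 stromal genes lay under the filter level in all 4 arrays. Cd79a, Ms4a1 and Pax5 of B cells, Hba-a1 of red cells, Adgre1 and Itgam of macrophages and Cxcl12 and Col3a1 of stroma stood at or under 4.58. Other markers lay above the filter in every array, Cd79b of B cells at 6.45 to 7.30, Alas2 of red cells at 5.73 to 6.40, Cd68 of macrophages at 6.33 to 7.10 and Pdgfrb of stroma at 6.69 to 7.27. The female transcript Xist stood between 13.31 and 13.56 in all 4 arrays and the Y-linked Eif2s3y between 3.48 and 3.88, so sex did not differ within the comparison, although the steady-state arrays read the opposite (Xist 6.09 to 6.71, Eif2s3y 10.21 to 10.79).

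No gene passed limma's test on the 4 arrays after Benjamini-Hochberg adjustment (0 of 13645, 0.00%), and the smallest adjusted p was 0.432. At an unadjusted p under 0.05 there were 249 genes higher in aged-origin cells (1.82%) and 387 lower (2.84%), together 4.66%. With 2 against 2 arrays an exact permutation test of a single gene has 6 arrangements and cannot go below a two-sided p of 0.333. A gene was therefore described by whether both aged arrays lay beyond both young arrays, here called no overlap. This held for 1934 genes with the aged arrays higher (14.2%) and 2358 with the aged arrays lower (17.3%), 31.5% in all. Array labels without any age effect would leave no overlap in a share of about 0.333 of genes. Neither this 31.5% nor the 4.66% at an unadjusted p under 0.05 exceeded the share that labels alone would give. Over all genes tested, 48.0% of differences lay above 0 and 52.0% below, with a median of -0.02 and an SD of 0.49. A gap of at least 1 log2 between the nearest aged and young arrays was left by 59 genes on the higher side (0.432%) and 67 on the lower side (0.491%). When the 6 steady-state arrays were added to the fit, so that their smaller scatter entered the error, 75 genes were called higher (0.550%) and 109 lower (0.799%).

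Many genes are read by more than 1 probe set, and these offered a second reading within the same arrays. Among genes without overlap that had another probe set over the filter, every other probe set pointed the same way in 945 of 2043 (46.3%). Among genes whose arrays overlapped this held for 1773 of 4530 (39.1%), so the 2 shares were close. The demand that each other probe set also be without overlap was met by 300 genes (14.7%) against 457 (10.1%). The 2 directions parted where the gap was at least 1 log2. There all other probe sets pointed the same way in 20 of 23 higher genes (87.0%) and 14 of 32 lower ones (43.8%). This counts direction alone, however small the difference. All other probe sets were also without overlap in 11 of the 23 (47.8%) and 7 of the 32 (21.9%). On the lower side a sister probe set pointed the opposite way in 18 of 32 genes (56.2%). Among those on the higher side were 4 dim genes named here after their values were seen, Rorb, Bmpr1a, Tmem47 and Lrmda, whose other probe sets all agreed.

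**Figure D1:**
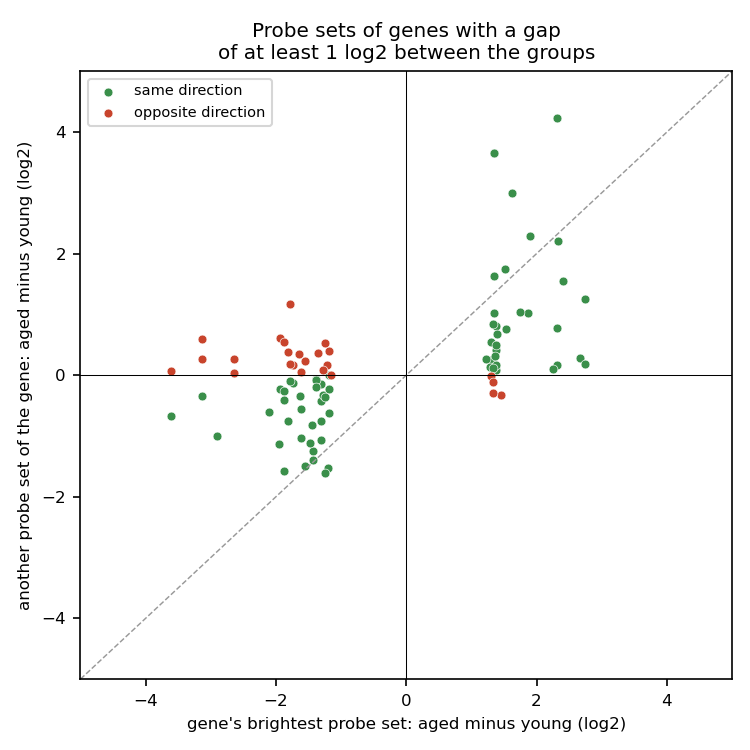
Agreement between probe sets of genes with a gap of at least 1 log2. Each point is 1 further probe set over the filter; the x axis gives the aged minus young difference (log2) of the gene's brightest probe set and the y axis that of the other probe set, green where the signs agree and red where they do not. Red points are mostly on the left, where the aged arrays were lower.

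The widest differences on the higher side, among genes above the median level whose other probe sets over the filter all stood higher without overlap too, were those of Ldhd, Ffar2 and Nrg4. Ldhd, encoding mitochondrial D-lactate dehydrogenase, stood at 4.50 and 6.36 in the young arrays and 7.54 and 8.66 in the aged arrays, a difference of 2.67 (SE 0.70). The young arrays lay 1.86 apart, yet both were under aged 1. Its other probe set differed by only 0.28, at 5.19 and 5.26 against 5.65 and 5.36. Ffar2, a receptor for short-chain fatty acids, stood at 7.61 and 7.61 against 9.65 and 10.38, 5.30-fold higher (SE 0.38 log2), and its second probe set gave 6.33 and 6.32 against 7.42 and 8.32. Nrg4, a growth factor ligand of ErbB4, stood at 5.64 and 5.70 against 7.83 and 8.18, a difference of 2.33 (SE 0.33). In both genes the young arrays lay within 0.06 of each other. Zg16, a lectin of secretory granules, stood at 7.94 and 7.38 against 8.74 and 10.90, and its 2 other probe sets differed by 0.81 and 0.85. Gpr183, an oxysterol receptor that guides immune cells, stood at 6.50 and 4.40 against 6.80 and 7.86, so young 1 and aged 1 were only 0.30 apart. The remaining 7 of the 12 genes named by this rule were Msantd3, Evi5, Mt1, Clca3a1, Nabp1, Nr2f6 and Mpzl1, with differences of 1.19 to 1.87. Nabp1, which encodes a single-stranded DNA binding protein, agreed over 4 probe sets, and the orphan nuclear receptor gene Nr2f6 stood at 7.03 and 7.05 against 8.21 and 8.67.

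On the lower side the widest differences within the same limits were those of Neil3, Rpp40 and Cgas. Neil3, a DNA glycosylase of base excision repair made in dividing cells, stood at 8.40 and 9.02 in the young arrays and 7.03 and 6.19 in the aged arrays, a difference of -2.10 (SE 0.43). Its second probe set gave 6.31 and 5.93 against 5.31 and 5.74. Cgas, the sensor of DNA in the cytosol, stood at 8.33 and 9.23 against 7.15 and 7.16, a difference of -1.63 (SE 0.41). Both aged arrays were nearly equal, and both lay more than 1 log2 under the nearer young array. Its other probe set differed by only -0.34, at 8.27 and 8.80 against 8.14 and 8.25. Cdca5 (sororin, which holds sister chromatids together) differed by -1.29 (SE 0.46), Cenpf, a kinetochore protein gene, by -1.28 (SE 0.40), and Babam2, a subunit of a BRCA1 complex, by -1.33 (SE 0.43). The other probe set over the filter gave -1.35 for Cdca5 but only -0.32 for Cenpf, and those of Babam2 gave -0.80 and -1.17. Rgs2, a brake on G protein signalling, agreed over 3 probe sets, with 10.05 and 9.67 against 8.27 and 8.60 in the brightest. Tgfb1, the ligand TGF-beta that holds HSC quiescent, stood at 9.72 and 8.86 against 8.52 and 7.54, a difference of -1.26 (SE 0.49). The purine salvage enzyme gene Aprt had the tightest values, 10.26 and 10.14 against 8.93 and 9.08. Rpp40, Enc1, Zfp574 and Klc1 completed the 12 genes, at -2.08 to -1.21. The other probe set of Rpp40 differed by only -0.37.

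**Figure D2:**
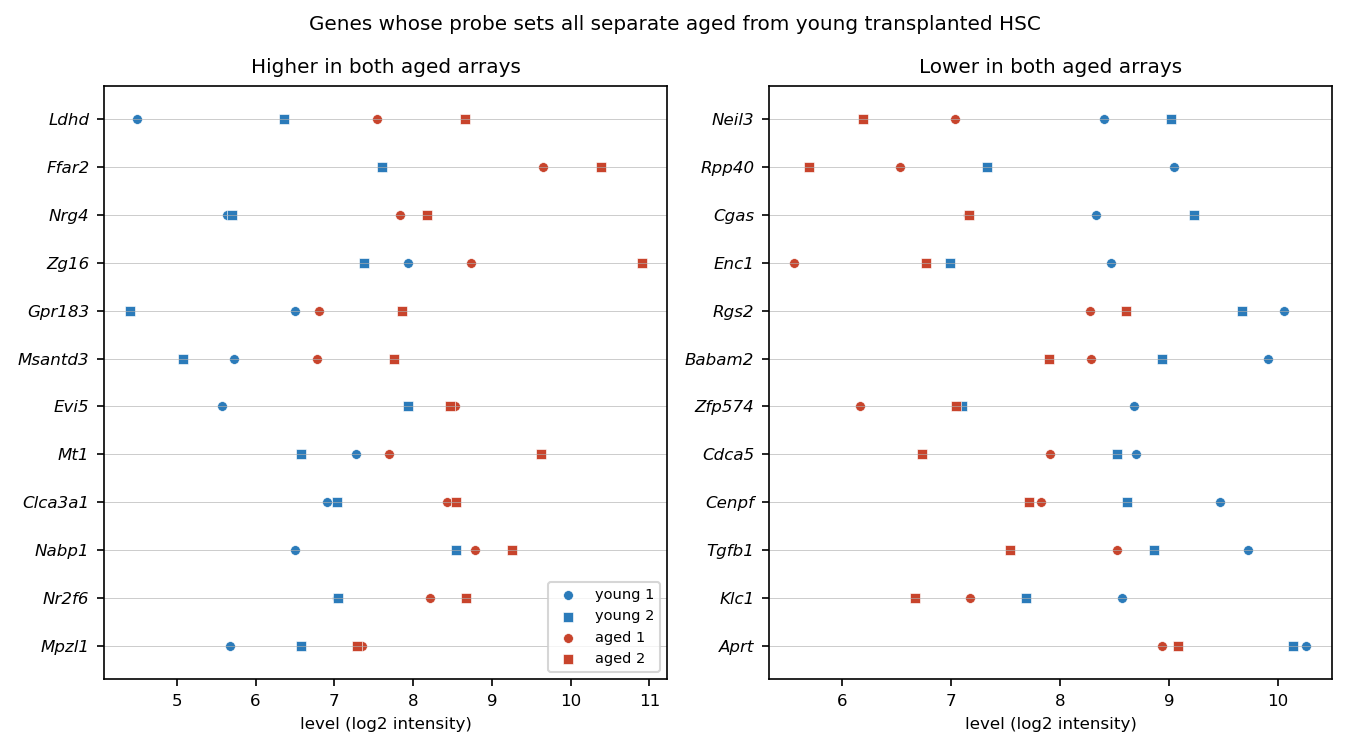
The 12 genes per direction whose probe sets all separated the groups, named by the size of the difference. Points are log2 intensity in young 1 and 2 (blue) and aged 1 and 2 (red); in Ffar2 and Nr2f6 the young points nearly coincide, and in Zfp574 aged 2 and young 2 nearly touch.

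Other genes were read by 1 probe set over the filter, so that they had no second reading above it. Plscr2, a phospholipid scramblase of the plasma membrane, stood at 5.40 and 5.83 in the young arrays and 8.83 and 8.61 in the aged arrays, 8.61-fold higher (SE 0.34 log2; limma adjusted p = 0.432). Tmem254a, a membrane protein gene, stood at 4.78 and 4.71 against 7.35 and 7.42. Each pair lay within 0.08, and the groups were 2.64 apart (SE 0.31). Mir155hg, the host transcript of the inflammatory microRNA miR-155, stood at 5.60 and 6.97 against 8.73 and 8.98, and Gem, a small GTP-binding protein gene, at 5.94 and 5.94 against 7.91 and 8.69. AA386476, an unnamed transcript, stood at 5.71 and 5.15 against 7.41 and 8.28. None of these overlapped. On the lower side Neil1, a second DNA glycosylase, stood at 9.33 and 6.35 against 5.50 and 5.28, with the young arrays 2.98 apart. Pcp4l1 stood at 8.04 and 7.41 against 5.78 and 5.85, a difference of -1.91 (SE 0.36). Slc15a4, a lysosomal histidine and peptide transporter, differed by -1.86, the amino acid transporter Slc36a1 by -1.84, Cabcoco1 by -1.90, Calhm2 by -1.88 and Gmppb, an enzyme of GDP-mannose synthesis, by -1.76.

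Other wide differences were contradicted by a sister probe set. Speg, a muscle kinase gene, stood at 6.86 and 9.09 against 5.34 and 4.34 in its brightest probe set, a difference of -3.14, while 2 of its 3 others lay at 0.26 and 0.60. Lrrcc1, a centrosome protein gene, stood at 8.35 and 8.25 against 5.74 and 5.59, and its others differed by 0.03 and 0.27. Pde1c and Ap1s2 likewise had -2.31 and -1.94 beside 0.11 and 0.62. On the higher side Pfn2, Gm26910, Zfand3 and Ufm1 had differences of 1.54 to 1.84 beside another probe set at -0.22, -0.16, -1.60 and -0.21. The direction of these 8 genes cannot be told from the arrays. Csf1r, the receptor for macrophage colony-stimulating factor, stood at 7.95 and 5.75 against 3.21 and 3.27, so both aged values lay under the filter level and the gene was tested through the young arrays alone. No size is given for its difference. Its 2 other probe sets gave -0.67 and 0.07.

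Genes reported to be higher in aged HSC, a list drawn up with earlier results of these data known and so no independent evidence of direction, mostly stood higher. Of 28 tested members, 27 lay above 0, 22 were without overlap on the higher side (against 14.2% of all genes) and 0 on the lower side, and the median was 1.16. The other 2 of the 30, Osmr and Gpr182, were under the filter. Among surface receptors, Cysltr2, a receptor for cysteinyl leukotrienes, stood at 8.06 and 8.12 against 9.79 and 10.02, a difference of 1.81 (SE 0.32). Ramp2, which escorts the adrenomedullin receptor to the membrane, stood at 5.31 and 4.73 against 6.90 and 7.59. Neo1, the netrin and guidance receptor neogenin, stood at 5.30 and 7.94 against 8.39 and 10.37. Its pairs were 2.64 and 1.98 apart, so its difference of 2.76 had an SE of 1.00, although all 4 other probe sets pointed the same way. Procr, the endothelial protein C receptor of the most primitive HSC, stood at 8.92 and 9.50 against 9.85 and 10.19. Slamf1, the CD150 receptor used to sort HSC, overlapped at 6.60 and 7.58 against 7.50 and 7.64. Among genes shared with platelets, Vwf, the platelet adhesion protein von Willebrand factor, stood higher by 0.94 (SE 0.40). Cavin2, a caveolar coat protein gene, did so by 1.01 (SE 0.33), Clu (clusterin) by 1.45 (SE 0.63) and Selp (P-selectin) by 0.78 (SE 0.37). Both other probe sets of Cavin2 overlapped, as did the integrin gene Itgb3, at 9.23 and 10.37 against 10.39 and 10.20. The wider megakaryocyte and platelet list was divided, with 10 genes above and 9 below 0. Tdrd9, an RNA helicase gene of the germline, stood at 5.09 and 6.27 against 7.46 and 8.18. Fhl1 alone lay below 0, at -0.20. The summed intensity of the 30 genes was 7744 and 8605 in the young arrays and 14524 and 18722 in the aged arrays, against 10379 to 10620 and 35792 to 37518 in young and aged steady-state HSC. The settings differed in median array intensity and were not put on a common scale, which limits a comparison of these sums across them.

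**Figure D3:**
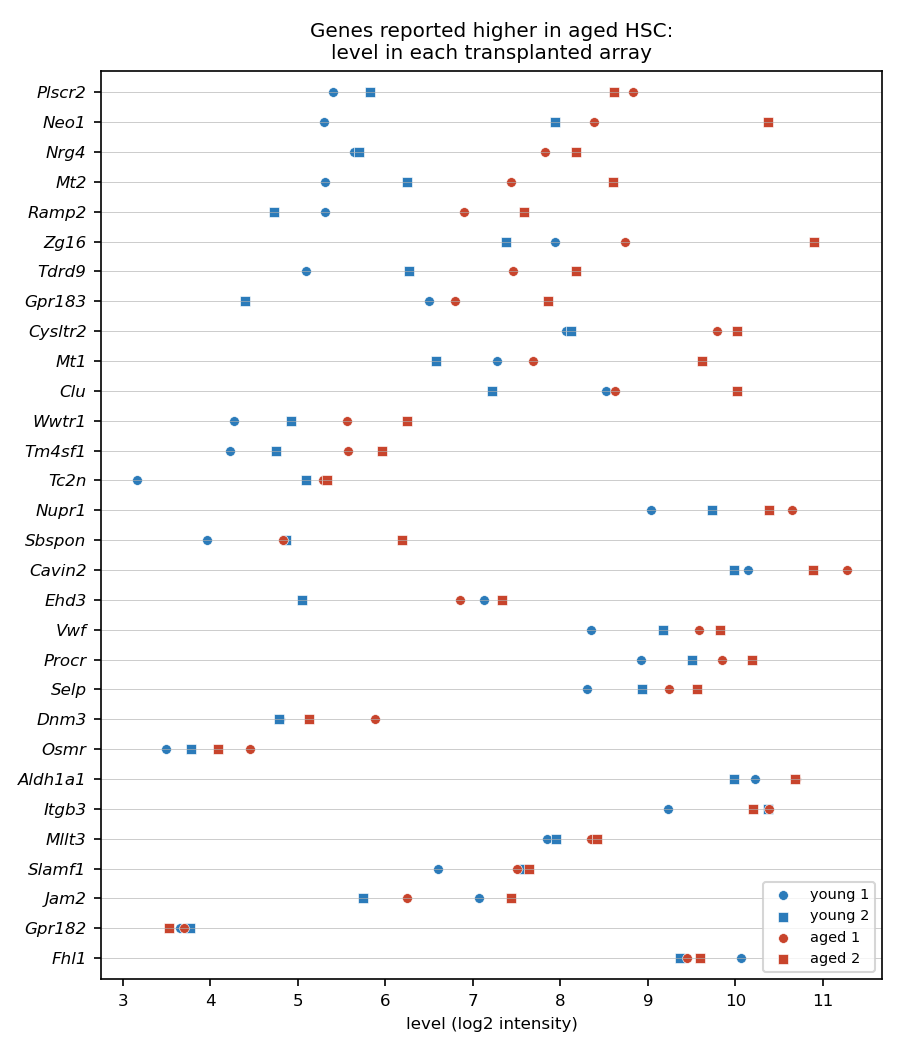
Levels (log2 intensity) of the 30 genes reported higher in aged HSC in each transplanted array, young in blue and aged in red, ordered by the difference. Plscr2 and Neo1 head the plot, and the lowest rows mostly overlap.

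Metallothioneins, small proteins that bind zinc and copper and are induced by metals and stress, belonged to the genes that stood higher. Metal induction runs through a metal response element bound by the zinc-sensing factor Mtf1. The windows below are the 250 bases before the RefSeq starts of the pair that differed most, shown because both members stood higher and lie side by side (build GRCm38.p6, plus strand, Mt1 at chr8:94178839-94179088 and Mt2 at chr8:94172368-94172617). Capitals mark the element's core, TGCACNC or TGCGCNC, searched on both strands, and no matches overlapped.
Mt1: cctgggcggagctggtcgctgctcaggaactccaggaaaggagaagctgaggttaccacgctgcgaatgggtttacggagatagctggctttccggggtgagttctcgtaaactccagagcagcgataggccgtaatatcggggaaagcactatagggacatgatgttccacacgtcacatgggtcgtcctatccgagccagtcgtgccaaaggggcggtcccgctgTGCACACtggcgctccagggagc
Mt2: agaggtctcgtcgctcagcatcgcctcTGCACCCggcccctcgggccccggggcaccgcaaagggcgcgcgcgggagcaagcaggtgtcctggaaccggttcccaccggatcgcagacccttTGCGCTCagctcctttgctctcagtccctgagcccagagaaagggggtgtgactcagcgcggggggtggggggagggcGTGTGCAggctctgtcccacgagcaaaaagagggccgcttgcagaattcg
Mt1 held 1 core, ending 16 bases before the start, and Mt2 held 3. A core was found in 4 of 8 listed genes with a window (Mt1, Mt2, Mt4, Slc30a1) and in 23.8% of 27025 genes. Mt1 stood at 7.28 and 6.58 in the young arrays and 7.69 and 9.62 in the aged arrays, a difference of 1.73 (SE 0.67), and Mt2 at 5.31 and 6.25 against 7.44 and 8.60, a difference of 2.24 (SE 0.53). In both genes aged 2 was the highest array. Slc30a1, the zinc exporter, stood at 7.19 and 7.93 against 8.51 and 8.57, while its other probe set pointed the opposite way. Mtf1 itself stood at 6.60, 7.17, 6.93 and 6.76 and overlapped, as did Mt3. Of 8 tested genes 5 lay above 0, 4 were without overlap on the higher side (against 14.2% of all genes) and 1 on the lower side (against 17.3%). The median was 0.57 and ran from 0.17 to 0.80 over 13 processing settings.

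Cell cycle genes stood lower in aged-origin cells as a list. All 27 tested genes lay below 0 (against 52.0% of all genes), 16 were without overlap on the lower side (against 17.3%) and 0 on the higher side, and the median was -0.48. At an unadjusted p under 0.05 there were 3 (against 2.84%), Ccnb2, Kif20a and Cenpe. Ccnb2, encoding the mitotic cyclin B2, stood at 8.64 and 9.19 against 7.58 and 7.22, a difference of -1.51 (SE 0.36). Kif20a, a kinesin of the dividing midzone, stood at 8.82 and 9.75 against 7.88 and 8.15, and Cenpe, a kinetochore motor gene, at 7.97 and 7.71 against 6.61 and 7.13 with its other probe set in agreement. Cdc20, the activator of the anaphase-promoting complex, stood at 11.61 and 9.91 against 9.41 and 9.39. Mki67, the proliferation antigen, stood at 12.69 and 12.75 against 12.33 and 11.39, and Ccna2 (cyclin A2) at 11.64 and 11.22 against 10.69 and 10.67. The other 11 genes overlapped between the groups. When any 1 array was left out, 24 or 25 of the 27 lay below 0. Summed intensity was 36464 and 36935 in the young arrays and 28151 and 22272 in the aged arrays. The steady-state median of the same list was -0.53, from other arrays.

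Many mitotic genes share promoter boxes, a CCAAT box bound by the factor NF-Y and a cell cycle homology region that takes part in their silencing in resting cells. The windows of Ccnb2 (chr9:70421555-70421804) and Cdc20 (chr4:118437344-118437593), both GRCm38.p6 and minus strand, are shown because both genes were among the widest differences of the list and hold both boxes. Capitals mark CCAAT and TTTGAA on either strand, and no matches overlapped.
Ccnb2: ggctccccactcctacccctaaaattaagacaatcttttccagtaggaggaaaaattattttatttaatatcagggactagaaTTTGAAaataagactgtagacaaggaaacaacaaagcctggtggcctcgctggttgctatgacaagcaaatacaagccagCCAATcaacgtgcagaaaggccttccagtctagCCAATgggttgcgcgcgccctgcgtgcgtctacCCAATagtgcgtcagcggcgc
Cdc20: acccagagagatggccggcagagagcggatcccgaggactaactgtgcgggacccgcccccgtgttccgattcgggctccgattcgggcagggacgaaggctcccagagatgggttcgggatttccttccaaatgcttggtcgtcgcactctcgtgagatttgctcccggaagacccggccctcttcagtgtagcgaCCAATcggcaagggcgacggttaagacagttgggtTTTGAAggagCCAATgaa
Ccnb2 held 3 CCAAT boxes and 1 TTTGAA, and Cdc20 held 2 and 1. In Ccnb2 the TTTGAA ended 161 bases before the start, farther from it than all 3 CCAAT matches. In Cdc20 it ended 12 bases before the start, between the 2 CCAAT matches. Whether these letters work as the named boxes was not tested. CCAAT was found in 18 of 22 list members with a window, against 37.5% of 27025 genes, and TTTGAA in 7 of 22, against 18.3%.

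The immediate early genes, transcription factors and feedback regulators that cells induce within minutes of a growth signal or stress, stood lower as well. Of 16 tested, 15 lay below 0, 11 were without overlap on the lower side (against 17.3% of all genes) and 0 on the higher side, and the median was -0.87. At an unadjusted p under 0.05 there were 6 (against 2.84%). Among the AP-1 factors, Fosb stood at 11.56 and 10.85 against 8.96 and 9.84, a difference of -1.80 (SE 0.45), Fos at 13.04 and 12.21 against 11.08 and 11.81, and Jun at 11.87 and 11.25 against 10.44 and 11.01. In all 3 the arrays were in the same order, young 1 highest and aged 1 lowest. Of the feedback regulators, Dusp1, a phosphatase of MAP kinases, stood at 11.82 and 11.12 against 10.36 and 10.16, and Zfp36, which speeds decay of inflammatory mRNAs, at 11.17 and 11.74 against 10.53 and 9.95. Klf6, a zinc finger factor, stood at 10.29 and 9.78 against 9.31 and 7.98, with 3 other probe sets in the same direction, and Egr1, an early growth response factor, at 11.87 and 11.60 against 10.53 and 11.08. Only Ier3 lay above 0, at 0.27. Atf3 and Junb were under the filter. Summed intensity was 32763 and 24365 in the young arrays against 13579 and 16765 in the aged arrays.

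These genes also respond to cell handling, and in steady-state HSC they varied widely within an age. Fosb stood at 11.09, 8.0 and 7.87 in the 3 young and 11.89, 8.22 and 6.76 in the 3 aged steady-state arrays, and the summed intensity of the list ran from 20951 to 73289 and from 24840 to 99681. For Fosb the SD within each steady-state age, 1.82 and 2.64, was wider than the transplanted difference, and the part of handling in the transplanted difference was not tested. The best known promoter elements of the class are the serum response factor's CArG box and the cAMP response element TGACGTCA, whose letters are in capitals in the windows of Dusp1 (chr17:26508473-26508722, cAMP response element) and Zfp36 (chr7:28379229-28379478, CArG box), both GRCm38.p6, minus strand, searched on both strands and without overlapping matches. They are shown as the members with the second and the third smallest p of the list.
Dusp1: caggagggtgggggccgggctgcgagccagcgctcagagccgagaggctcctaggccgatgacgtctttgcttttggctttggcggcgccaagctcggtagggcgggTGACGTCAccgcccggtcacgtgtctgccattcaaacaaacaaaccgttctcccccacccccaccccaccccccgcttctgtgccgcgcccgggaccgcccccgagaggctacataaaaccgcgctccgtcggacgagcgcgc
Zfp36: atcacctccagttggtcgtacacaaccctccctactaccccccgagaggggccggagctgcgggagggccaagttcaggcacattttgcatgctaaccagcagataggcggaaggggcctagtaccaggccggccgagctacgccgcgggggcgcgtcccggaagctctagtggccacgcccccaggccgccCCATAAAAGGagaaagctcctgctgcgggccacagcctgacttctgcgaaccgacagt
Each window held 1 match, 135 bases before the start in Dusp1 and 48 in Zfp36. TGACGTCA was found in 2 of 15 members with a window, against 1.77% of 27025 genes, and the CArG box in 2 of 15 (Egr2, Zfp36), against 1.62%.

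**Figure D4:**
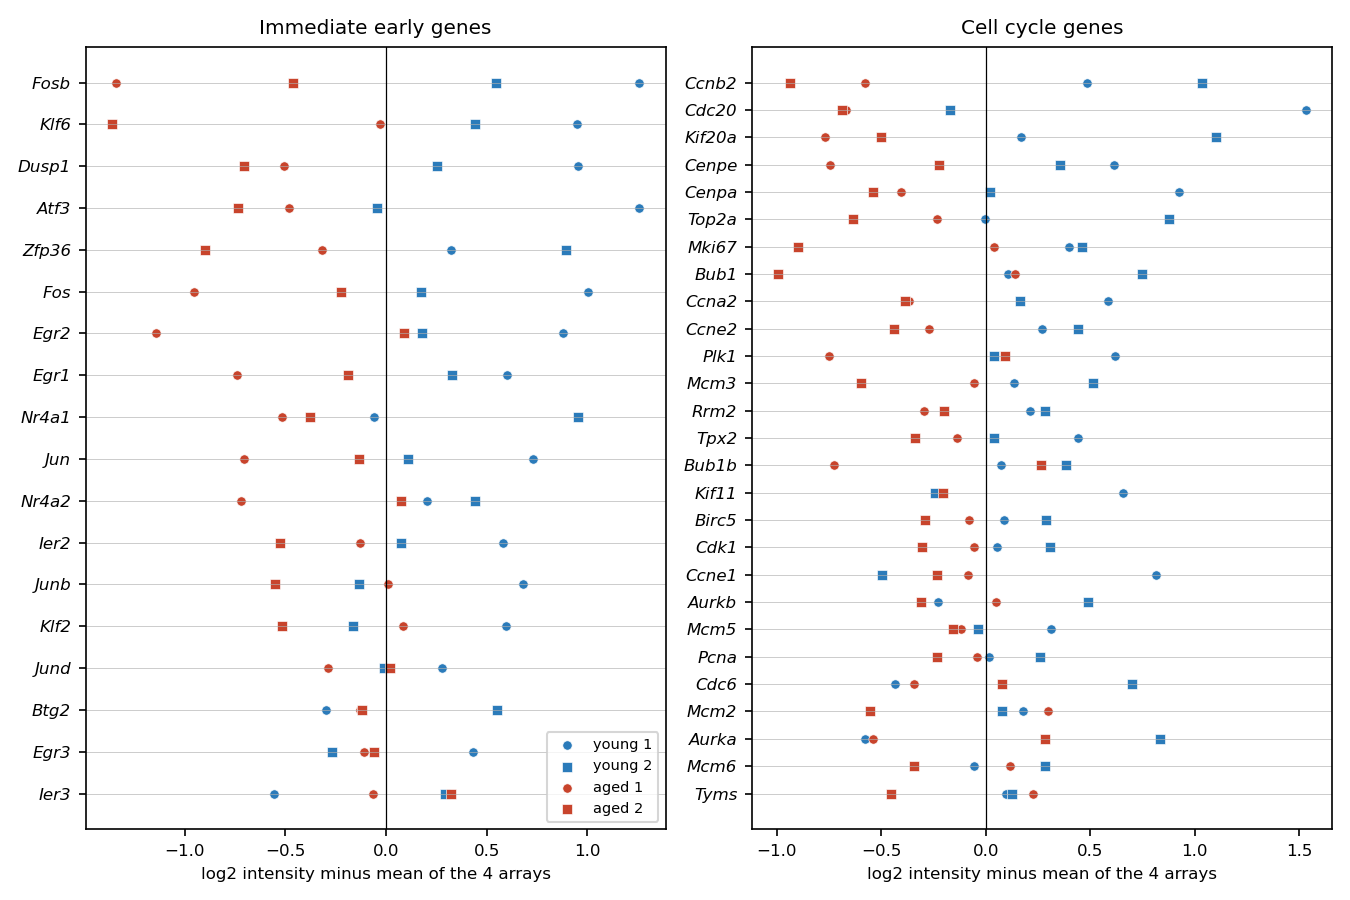
Immediate early genes (left) and cell cycle genes (right) in each transplanted array, as log2 intensity minus the mean of the 4 arrays, young in blue and aged in red. Atf3 and Junb, which were under the filter, are drawn too. Red points lie mostly left of 0 in both panels, and the symbols mix in the lower rows.

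DNA repair genes followed the same side. Of 20 tested, 18 lay below 0, 10 were without overlap on the lower side (against 17.3% of all genes) and 0 on the higher side, 5 had an unadjusted p under 0.05 (against 2.84% on the lower side), and the median was -0.35. Besides Neil1 and Neil3, these were Atr, the kinase that senses stalled replication (7.55 and 8.45 against 6.83 and 6.44), Fancd2, of the crosslink repair pathway (5.54 and 6.50 against 4.69 and 4.81), and Brca1, of homologous recombination (8.15 and 8.53 against 7.69 and 7.14). Neither Atr nor Brca1 had a further probe set in the same direction (0 of 1 and 0 of 3). Leaving out aged 2 moved the median to -0.12 and leaving out young 1 moved it to -0.67, with 15 to 18 of 20 below 0 when any 1 array was left out. Many of these genes are made in dividing cells, and the cell cycle genes stood lower in the same arrays. The share of this in the repair list was not tested.

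Among the 4 transplanted arrays, some immunoglobulin transcripts were bright in the aged-origin arrays only. Igk, the kappa light chain of antibodies, stood at 4.43 and 3.93 in the young arrays and at 8.10 and 9.40 in the aged arrays, and the kappa variable segment Igkv8-30 at 3.65 and 3.68 against 7.03 and 7.44. Jchain, which joins antibody chains for secretion, stood at 3.48 and 3.48 against 5.47 and 5.62. In these 3 genes both young values lay under the filter level, and the probe sets passed it through the aged arrays alone, so no size is given for the differences. The 3 other Igk probe sets, all under the filter, differed by 0.21, -0.30 and 0.17, and another listed kappa variable segment stood at 2.82 to 2.94. Among defining B cell markers, Cd79a stood at 4.58, 4.12, 4.55 and 4.51, Pax5 at 4.04, 3.78, 4.07 and 3.78 and Ms4a1 at 3.99, 3.48, 3.90 and 3.82, near or under the filter level. Cd79b, the partner of Cd79a in the B cell receptor, was above it and stood lower in the aged arrays, at 6.85 and 7.30 against 6.55 and 6.45. Of 23 listed B lineage genes 19 were on the arrays and 12 were tested. Of these 7 lay above 0, with a median of 0.07 that changed sign in 1 of 13 settings. The 7 include Igk, Igkv8-30 and Jchain, which passed the filter through the aged arrays alone, so the count gives no direction. The summed intensity was 1839 and 1631 against 1904 and 2700. Besides Igk and Jchain, the plasma cell genes Mzb1, Sdc1 and Xbp1 were read, and these overlapped between the groups. Mzb1 stood at 5.16 and 5.06 against 4.86 and 5.18, and Sdc1 (syndecan-1) at 5.11 and 7.76 against 5.04 and 5.66. Xbp1, the factor of antibody secretion, stood at 9.86 and 8.94 against 8.85 and 9.66. The cell source of the immunoglobulin transcripts was not tested. In bulk RNA, fewer cells of a type and less RNA per cell cannot be told apart. In steady-state HSC, aged array 1 held Jchain at 8.13, Igkv8-30 at 6.32 and Igk at 5.38. In the other 5 these genes stood at 3.38 to 4.38, 3.45 to 3.72 and 4.38 to 4.66.

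The remaining lineage lists stayed small or mixed. T and NK genes lay below 0 in 7 of 7 tested, with a median of -0.23 that ran from -1.34 to -0.08 over the settings. The adaptor Lat stood at 8.14 and 8.85 against 7.14 and 6.99 and the granule protein gene Nkg7 at 8.06 and 8.04 against 6.18 and 7.42. The T cell receptor subunit genes Cd3d and Cd3e overlapped, at 5.33 and 4.71 against 4.99 and 5.02 and at 4.60 and 4.91 against 4.97 and 4.43. Monocyte genes lay below 0 in 8 of 11 (median -0.33), with Lyz2, lysozyme, at 10.52 and 11.27 against 10.18 and 10.05. The 8 include Csf1r, which passed the filter through the young arrays alone. Klf4 stood at 6.18 and 6.42 against 4.08 and 4.76, while its other probe set overlapped. In steady-state HSC Klf4 varied within an age, from 7.78 to 11.13 in young and 6.01 to 11.40 in aged arrays. The summed intensity of the monocyte list was 5386 and 6298 against 4680 and 4781. Mast cell and basophil genes lay below 0 in 6 of 7 (median -0.14), with the inhibitory receptor Milr1 at 7.01 and 6.85 against 4.87 and 5.16. Neutrophil genes lay above 0 in 10 of 13, with a median of 0.42 that ran from 0.02 to 0.69 over the settings. The granule protein gene S100a8 was high in 1 array only, at 4.90 and 5.92 against 5.43 and 9.14, and the list's summed intensity was 1221 and 1019 against 1151 and 2567. Erythroid genes lay above 0 in 5 of 13, with a median of -0.16 that changed sign in 2 of 13 processing settings. The anion exchanger Slc4a1, among the 5, stood at 3.33 and 3.50 against 5.69 and 5.65. Both young values lay under the filter level, so it was tested through the aged arrays alone and its difference has no exact size. Its other probe set over the filter overlapped, and the haemoglobin gene Hba-a1 stayed under the filter at 3.19 to 3.96. Megakaryocyte genes were divided, 10 above and 9 below 0, with a median of 0.07 that changed sign in 1 setting. Vwf, Clu, Selp and Cavin2 stood higher, whereas Itga2b, the CD41 integrin of platelets and early progenitors, stood at 9.04 and 8.41 against 7.96 and 7.53 and Gp5, a platelet glycoprotein gene, at 6.26 and 6.20 against 5.10 and 5.30. Lymphoid priming genes lay below 0 in 7 of 10 (median -0.39), with 0 at an unadjusted p under 0.05. Stromal genes lay above 0 in 7 of 10, with a median of 0.20 that changed sign in 1 setting.

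HSC identity genes split likewise, 18 above and 7 below 0 of 25, with a median of 0.12 that changed sign in 1 setting, and with 7 without overlap on the higher side (against 14.2% of all genes) and 5 on the lower side (against 17.3%). Cd48, a SLAM family protein that marks cells leaving the HSC gate, stood at 5.61 and 5.86 against 3.84 and 3.74, and was below the filter level in the aged arrays, so its difference has no exact size. It is counted among the 5, although it passed the filter through the young arrays alone. Esam, an endothelial adhesion molecule carried by HSC, stood at 10.20 and 10.24 against 9.26 and 8.95, a difference of -1.12. Ndn, the imprinted growth suppressor necdin, stood at 8.94 and 9.05 against 9.89 and 10.53, a difference of 1.22 (SE 0.36), and all 4 other probe sets pointed the same way. Cd34 stood at 10.47 and 9.97 against 9.45 and 9.89, and Flt3, a receptor of lymphoid-primed progenitors, overlapped at 6.06 and 6.65 against 6.58 and 7.05. Of Polycomb and DNA methylation genes 14 of 22 lay below 0 (median -0.09). Eed, the histone mark reader of Polycomb complex PRC2, stood at 9.35 and 9.35 against 8.39 and 8.36, Cbx2, a PRC1 subunit, at 6.59 and 7.13 against 5.58 and 5.82, and Tet1, which oxidises methylated cytosine, at 8.21 and 8.13 against 7.43 and 7.13 with 2 of 3 other probe sets in agreement. Bmi1, also of PRC1, stood higher at 8.72 and 8.86 against 9.27 and 9.55, and its other probe set pointed the opposite way.

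Signalling and housekeeping lists lay close to the median of all genes. The medians were 0.01 for p53 targets (7 of 14 above 0), -0.02 for interferon response genes (8 of 16), -0.10 for NF-kB and inflammation genes (6 of 14), 0.03 for Cdk inhibitors with D cyclins (6 of 11), 0.03 for imprinted genes (8 of 15) and -0.05 for oxidative phosphorylation subunits (8 of 20), and each of these 6 changed sign in at least 1 setting. Ribosomal protein genes lay above 0 in 12 of 14, by a median of only 0.08, and heat shock genes below 0 in 11 of 13, by -0.17. The interferon genes Ifit1 and Rsad2 stood higher by 0.90 and 0.74 and Irf9, a factor that carries the signal, lower at -0.77.

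**Figure D5:**
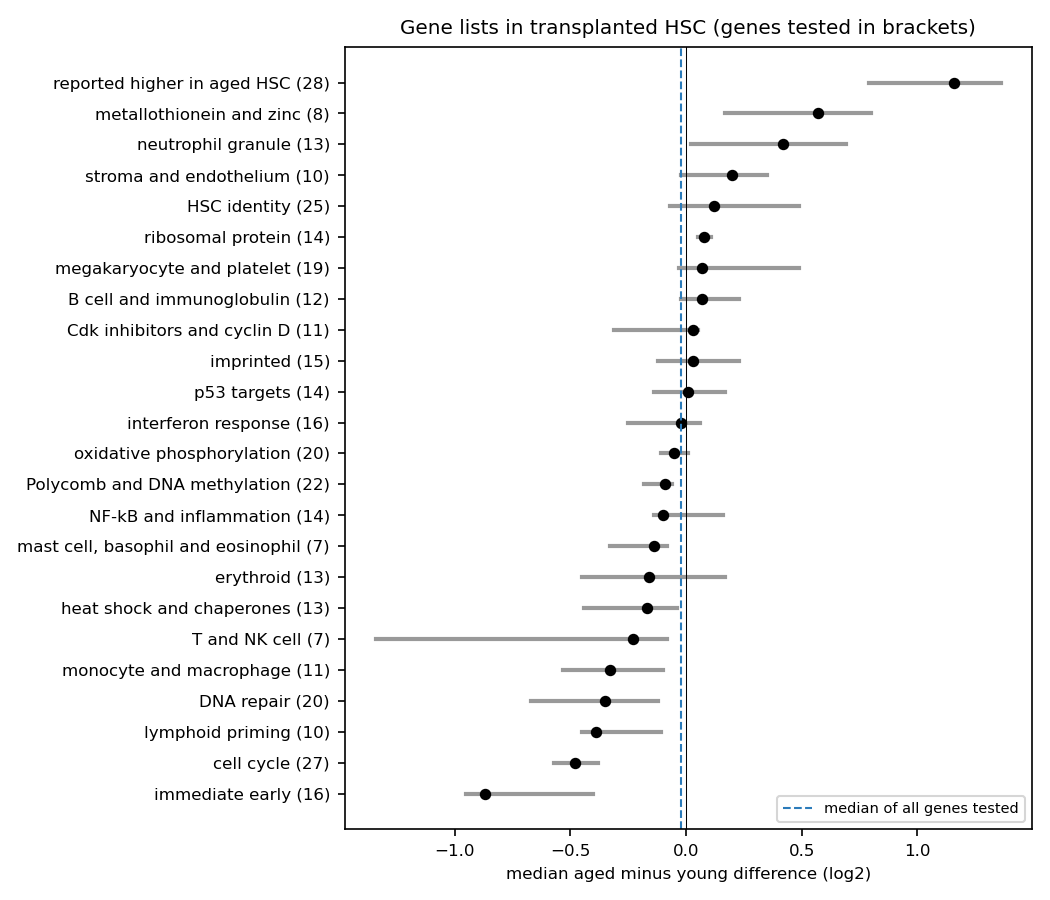
Median aged minus young difference (log2) of each gene list in transplanted HSC, with the number of genes tested in brackets; black points are the main values, grey bars their range over 13 processing settings and the dashed line the median of all genes. The list of genes reported higher in aged HSC lies farthest right, and immediate early and cell cycle genes farthest left; bars that cross 0 belong to lists without a settled direction.

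The age difference of steady-state HSC, fitted on its own 6 arrays with no array in common, was set beside the transplanted values. Of the 307 genes called higher in aged steady-state HSC (2.25%), 267 were tested after transplantation. There 213 (79.8%) lay above 0, against 48.0% of all genes, with a median of 0.40. Without overlap on the higher side were 107, which is 40.1% of those 267, against 14.2% of all genes tested. They made up 5.53% of the 1934 such genes. Of the 108 called lower (0.791%), 93 were tested and 65 (69.9%) lay below 0, against 52.0% of all genes, with a median of -0.27. There 40 were without overlap on the lower side, 43.0% of the 93 against 17.3% of all genes tested, and 1.70% of the 2358. In the opposite direction 13 of the 267 were without overlap on the lower side (against 17.3% of all genes). On the higher side this held for 7 of the 93 (against 14.2%). Plscr2 differed by 4.12 in steady state and 3.11 after transplantation, Mt2 by 3.32 and 2.24, Cysltr2 by 2.14 and 1.81 and Ramp2 by 2.37 and 2.22. The difference between these age effects was tested on all 10 HSC arrays, where limma called 17 of 13645 genes (0.125%), and in none of these 4 did it pass, at adjusted p = 0.342 or above, which does not show the effects to be equal. It passed for Osmr, the oncostatin M receptor (adjusted p = 0.00298), which stood at 8.37 to 9.01 in aged steady-state cells. All its other values, 4.08 to 4.30 in young steady-state and 3.49, 3.78, 4.45 and 4.09 in transplanted cells, lay under 4.50, so the size of either age effect is not settled. It also passed for Selp (-2.56, adjusted p = 0.0229), the stress regulator Nupr1 (-2.28, adjusted p = 0.0448) and the Hippo pathway coactivator gene Wwtr1 (-2.56, adjusted p = 0.045). All 3 still stood higher in both aged transplanted arrays, Nupr1 at 9.04 and 9.73 against 10.65 and 10.38. Wwtr1 was dim there, at 4.27 and 4.92 against 5.56 and 6.25, and 1 of its 2 other probe sets pointed the opposite way. In the other direction the test passed for Tmem254a (1.71, adjusted p = 0.0448) and for Igk (adjusted p = 0.0229). Igk was read above the filter level mainly in the aged transplanted arrays, so its result rests on dim values elsewhere. The test passed also for Lrrcc1 (-2.70, adjusted p = 0.0229), whose probe sets disagreed. With the replicate number as a block this test called 0 genes. The fit pooled a common error, although the transplanted pairs scattered more (correlations of 0.920 and 0.953, against 0.985 to 0.993 in steady state). The transplanted arrays read as female and the steady-state arrays as male, so setting and sex cannot be told apart.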

How the data were processed

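Expression was measured on 16 single-channel arrays. The authors deposited 1 table of intensity values on a linear scale (4.53 to 31493) for 45101 probe sets. RNA was extracted with a QIAGEN microRNeasy kit, per the labels' protocols. The sources used here do not give the summarisation or scaling method, and no detection calls were used, so a dim gene cannot be told from an absent one. The deposited intensities were put on the log2 scale with no pseudocount and no further scaling. Of the probe sets, 64 were controls, 9160 had no listed gene, 932 had several symbols and 34945 had 1. Each of 18193 genes was read by its single-symbol probe set with the highest mean over all 16 arrays. Genes under the 25th percentile of mean level over the 4 arrays were left out.

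The 4 arrays were fitted with limma 3.58.1 (lmFit, eBayes; R 4.3.3), which left 2 residual degrees of freedom, and p-values were adjusted by Benjamini-Hochberg over all 13645 genes. The steady-state fit used its 6 arrays, and the difference of age effects all 10 HSC arrays. All adjusted p-values are from limma. The fit was tested on simulated arrays of 2 against 2, with scatter drawn from the fit. It called 0% of genes changed by 1 log2, 9.2% at 2 log2, 66.4% at 3 log2 and 90.2% at 4 log2. That no gene was called on the 4 arrays therefore does not show that changes of 1 or 2 log2 are absent. The number of arrays limits the precision. The genes and the 25 gene lists were chosen with earlier results of these data known.

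Genes were named by a rule. It took per direction the 12 widest differences without overlap, above the median level, whose other probe sets agreed without overlap, the 8 widest without another probe set over the filter and the 4 widest with an opposing probe set. From every list it added the 4 members of smallest p, and beside them fixed HSC, lineage and sex genes. Further list members are named as examples. Replicate numbers did not pair the arrays: deviations of same-numbered arrays from their group means correlated at -0.158. Promoter windows came from a RefSeq table (GRCm38.p6). Alternatives were other scalings, filters, pseudocounts and error models, a mean over probe sets, a replicate block and each array left out.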

Additional observations from a re-analysis of the deposited data

Results flagged for a closer look

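The following genes passed the test of the age effect after transplantation against that in steady-state HSC (10 HSC arrays, limma adjusted p under 0.05). The test pooled a common error, although transplanted replicate pairs scattered more than steady-state pairs. Transplanted arrays read as female and steady-state arrays as male, so setting and sex cannot be told apart. With the replicate number as a block the test called 0 genes. For Igk the difference of effects was 4.33 log2 (SE 0.56). It was bright only in the aged transplanted arrays (8.10 and 9.40), while the other arrays stood at 3.93 to 5.38, most under or near the filter level of 4.50, so this size is not exact. For Tmem254a it was 1.71 (SE 0.25), with the aged arrays higher in both settings. Selp gave -2.56 (SE 0.33), Wwtr1 -2.56 (SE 0.39) and Nupr1 -2.28 (SE 0.34). All 3 were higher in aged cells of both settings but less so after transplantation. In Wwtr1 the transplanted values were dim (4.27 and 4.92 against 5.56 and 6.25) with young 1 under 4.50, so its size is not exact. Of its 2 other probe sets over the filter, 1 pointed the opposite way. Osmr gave -3.93 (SE 0.32), but its 4 transplanted values lay under the filter level, where it was not among the genes tested. Only its aged steady-state values (8.37 to 9.01) were bright, so this size is not exact. Lrrcc1 gave -2.70 (SE 0.33) in a probe set that 2 others did not follow.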

How the results depend on the processing

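The number of genes called on the 4 arrays was 0 under each alternative but the fit on all 10 HSC arrays, which called 75 higher and 109 lower (851 and 1228 at an unadjusted p under 0.05). At that unadjusted p the main 249 higher genes became 375 with no filter and 147 with a filter at the 50th percentile, where the 387 lower became 254 and the genes higher without overlap 1178. With 1 array left out the numbers ran from 132 to 823 higher and from 150 to 893 lower, and overlap is then not defined. These fits assume that the lone array varies like the other group. A required gap of 1 log2 left 59 and 67 genes without overlap, and full probe set separation held for 14.7% against 46.3% with agreement in direction alone. With the replicate number as a block 0 genes were called (235 higher and 302 lower at the unadjusted p). With crossed numbers, chosen after seeing the data, 0 were called (308 and 474). The 17 genes with differing age effects became 0 with the block and 14 to 724 with 1 transplanted array left out.

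With a pseudocount of 64 the list medians were 0.79 for genes reported higher in aged HSC, -0.38 for cell cycle and -0.40 for immediate early genes. With 1 array left out they ran from 1.02 to 1.36, from -0.57 to -0.41 and from -0.95 to -0.69, and from -0.67 to -0.12 for DNA repair. All 4 kept their sign under every setting run. Of the named genes, 12 near 0 or with 1 deciding array changed sign when an array was left out: Xist (-0.11 to 0.13), Slamf1 (-0.01 to 0.97), Mecom (-0.30 to 0.50), Fhl1 (-0.55 to 0.15), Ier3 (-0.16 to 0.69), Sdc1 (-2.41 to 0.24), Mzb1 (-0.25 to 0.07), Cd3e (-0.33 to 0.22), Cd3d (-0.33 to 0.29), Alas2 (-0.13 to 0.54), Xbp1 (-0.60 to 0.32, and 0.03 with the mean of probe sets) and Mtf1 (-0.33 to 0.25, and 0.00 with quantile normalisation). With the mean of probe sets Pdgfrb was at 0.17. The cause was not tested.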
